A study of Mus musculus with 24 samples.

Results

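Liver RNA of weaned Cyp1b1-null males was compared between a vitamin A deficient and a vitamin A sufficient maternal diet. The comparison took every array that the labels call Cyp1b1-null, postnatal day 21 (PN21): 2 deficient and 2 sufficient samples of the 24 samples in the series. Cyp1b1-null mice lack the cytochrome P450 enzyme Cyp1b1, a monooxygenase that acts on estrogens, polycyclic hydrocarbons and retinoids. The null genotype was common to all 4 samples, and the labels give both diet groups the same strain name. The contrast is thus one of diet within the null line. Pregnant dams ate a standard breeder diet until embryonic day 4.5, then either a defined low fat diet with vitamin A or its deficient counterpart, which continued until day 21. Each of the 4 arrays held RNA pooled from 2 male mice. The labels name no part of the gene that was deleted and no number of litters or founders, so whether pools share a litter is unknown. The p-values rest on the spread between samples, pooled over the 10 groups of the fit. The other groups were wild-type C57Bl/6J and R-Cyp1b1-null livers at weaning, and wild-type and Cyp1b1-null livers at birth, on the same diets. The 3 arrays of wild type sufficient at weaning came from the same pool and were averaged, so that group added no spread. Tests of a difference from weaning wild type rest on that pool alone for the sufficient diet. R-Cyp1b1-null is, per the labels, a null substrain that resists obesity induced by diet.

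Vitamin A (retinol) is stored in liver as retinyl esters, mostly in stellate cells, and is oxidised in steps to retinoic acid. Retinoic acid binds nuclear receptors on direct repeats in DNA, and one of its best known targets is Cyp26a1, the enzyme that degrades it. Cholesterol is made from acetyl-CoA through mevalonate, isoprenoids, squalene and lanosterol. The genes of that route are switched on together by the membrane-bound transcription factor SREBP2, which is released when cells run short of sterol, while SREBP1 drives fatty acid synthesis. Fetal liver also makes blood cells and expresses Igf2, H19 and Afp, which are shut down in the weeks after birth.

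Promoter sequences are shown for 3 cholesterol genes that lay higher on the deficient diet, because the members of that pathway moved together, and for Cyp26a1, the retinoic acid target. They are the 250 bases before each start in RefSeq, build GRCm38.p6, plus strand, 5′ to 3′. Capitals in the first 3 mark the CCAAT box (CCAAT on either strand, here read as ATTGG) and, in Hmgcs1, also the sterol regulatory element TCACNCCAC. Capitals in Cyp26a1 mark a direct repeat spaced by 5 bases, AGNTCANNNNNAGNTCA, here on the opposite strand. The windows are chr13:119690101-119690350 for Hmgcs1, chr13:8885356-8885605 for Idi1, chr10:76531355-76531604 for Lss and chr19:37697558-37697807 for Cyp26a1.
Hmgcs1: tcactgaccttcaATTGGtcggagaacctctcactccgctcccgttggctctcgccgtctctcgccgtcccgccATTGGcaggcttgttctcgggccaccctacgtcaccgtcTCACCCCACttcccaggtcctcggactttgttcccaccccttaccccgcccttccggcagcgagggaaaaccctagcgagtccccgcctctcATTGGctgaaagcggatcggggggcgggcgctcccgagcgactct
Idi1: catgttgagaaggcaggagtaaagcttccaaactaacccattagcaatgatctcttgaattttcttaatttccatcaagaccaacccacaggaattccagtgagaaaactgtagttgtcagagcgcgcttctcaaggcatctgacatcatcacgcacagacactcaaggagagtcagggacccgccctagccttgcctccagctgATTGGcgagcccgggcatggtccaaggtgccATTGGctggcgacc
Lss: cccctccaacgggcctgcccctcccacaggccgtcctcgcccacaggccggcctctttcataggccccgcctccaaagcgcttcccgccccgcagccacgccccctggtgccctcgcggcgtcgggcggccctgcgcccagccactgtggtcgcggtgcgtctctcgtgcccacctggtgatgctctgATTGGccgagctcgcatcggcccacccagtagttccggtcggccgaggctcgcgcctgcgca
Cyp26a1: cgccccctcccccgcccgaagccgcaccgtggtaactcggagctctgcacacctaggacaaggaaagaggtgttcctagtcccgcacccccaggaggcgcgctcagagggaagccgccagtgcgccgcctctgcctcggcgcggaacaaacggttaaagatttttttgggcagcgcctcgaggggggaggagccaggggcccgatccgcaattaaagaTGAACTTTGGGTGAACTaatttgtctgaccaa
The CCAAT letters were in 17 of the 19 measured cholesterol genes that had a promoter entry, a share of 89.5%, against 37.5% of all 27025 genes with an entry and 33.8% of their 32851 promoters of the same length. The sterol element was in 1 of the 19, Hmgcs1, and in 1.22% of all genes and 1.05% of promoters. The direct repeat was in 0.229% of all genes and 0.198% of promoters, and in none of the 19. Both strands were searched, and none of the marked matches overlapped. A match describes letters in this window, not binding.

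The 4 arrays lay on 1 slide, with 65.6% to 66.2% of probes well above background and pairwise correlations across genes of 0.990 to 0.994. Deficient pool 2 correlated as closely with sufficient pool 2 (0.992) as with deficient pool 1 (0.992). Levels are log2 intensities after subtraction of that array's 75th percentile, and a difference is deficient minus sufficient. The sufficient pools held the first positions on the slide and the deficient pools the last, so slide position and diet cannot be told apart. All 29 measured adult hepatocyte genes of 30 listed were well above background on all 4 arrays. Alb, serum albumin, stood at 10.42 and 10.24 with vitamin A and at 10.45 and 10.04 without it. The Y-linked gene Ddx3y stood at 1.87, 1.91, 2.12 and 2.11 on the same arrays, all labelled male. The median of 5 sex-linked genes, X-linked and Y-linked together, was -2.00 to -1.72 on these arrays and -7.43 to -3.90 on the newborn null arrays. The sex make-up of the newborn arrays was not tested. Newborn null sufficient sample 2 also stood apart for exocrine pancreas markers (median 1.90) and skeletal muscle markers (median 2.83). The rest of the newborn null arrays lay at -3.11 to -2.84 and -4.52 to -1.09. How far these sex-linked, pancreas and muscle gene levels enter the comparisons with newborn null below was not tested. The brighter Cyp1b1 probe read 0.46 and 0.50 in the sufficient pools and -0.80 and 0.89 in the deficient pools. It was brighter there than in weaning wild-type liver, and the labels do not place it against the deleted part, so it does not check the genotype. The second Cyp1b1 probe differed by 0.42 on the log2 scale, the first by -0.44 ± 0.53 (SE), and the diet groups overlapped on the first.

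Ifi202b and Trmt61b rose, and were the only genes to pass the test. Of 20572 genes tested with limma, 2 had an adjusted p under 0.05, which is 0.00972% of them, both higher on the deficient diet and 0 lower. An unadjusted p under 0.05 was reached by 355 genes (1.73%), 172 in the higher direction (0.836%) and 183 in the lower direction (0.89%). Groups of genes are also described by how many members did not overlap between diets, both deficient arrays above or below both sufficient ones. Over all genes this held for 19.4% in the higher and 16.8% in the lower direction, and the median difference over all genes was 0.02.

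Ifi202b encodes an interferon-inducible protein of the p200 family, and its level is known to vary among inbred mouse strains. Per the labels the pools of both diets carry the same strain name, but whether they shared a genetic background was not tested. A difference between them is thus between these pools and may not be one of diet alone. Ifi202b was not well above background in either sufficient pool, at -7.50 and -7.18, and stood at -0.75 and -1.21 in the deficient pools. The difference was 6.36 ± 0.41 (SE, n = 2 and 2 pools; limma adjusted p = 1.25e-05), or at least 22.6-fold higher when the sufficient arrays are set at their lowest signal above background. This bound did not hold with normexp background correction and quantile normalization, where the difference was 1.47 on the log2 scale. The level of the deficient null pools was close to that of R-null weaning liver, from -1.17 to -0.32 over 5 arrays. Weaning wild-type liver lay between -3.46 and -2.02, close to the lowest signals above background on those arrays, from -3.99 to -2.63. On the weaning null arrays that lowest signal was -5.59 to -5.31. In newborn null liver all 4 arrays, on both diets, were not above background, from -7.96 to -7.63. These other groups lay on other slides, so level and slide cannot be told apart here. The diet effect in the weaning null differed from that in weaning wild type, weaning R-null and newborn null. As fitted, it was larger by 7.39 ± 0.65 than in weaning wild type (limma adjusted p = 0.000583), by 6.30 ± 0.55 than in R-null (adjusted p = 0.000621) and by 6.21 ± 0.58 than in newborn null (adjusted p = 0.00124). It was the only gene called in each of these 3 tests, 0.00486% of genes. The sizes of these 3 differences rest on levels not above background in the sufficient null pools, and in all newborn null arrays, so they are not exact. All 3 calls were lost with quantile normalization, with or without normexp background correction. The diet call for gene Ifi202b was lost when the 4 arrays were fitted alone (limma adjusted p = 0.0550).

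Trmt61b encodes a mitochondrial tRNA methyltransferase. It was not well above background at -7.32 and -7.55 in the sufficient pools and stood at -3.12 and -2.78 in the deficient pools. The difference was 4.48 ± 0.60 (SE; limma adjusted p = 0.0417), or at least 5.76-fold higher. It was called under 4 of 16 alternatives and lost when any 1 of the 4 arrays was left out, with adjusted p from 0.242 to 0.546. With normexp background correction and quantile normalization the difference was 0.65, below the bound given. The other weaning arrays lay between -4.70 and -1.96, and all 5 R-null arrays among them were not above background. The diet effect did not pass the test of a difference from any of them (smallest adjusted p = 0.309).

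**Figure D1:**
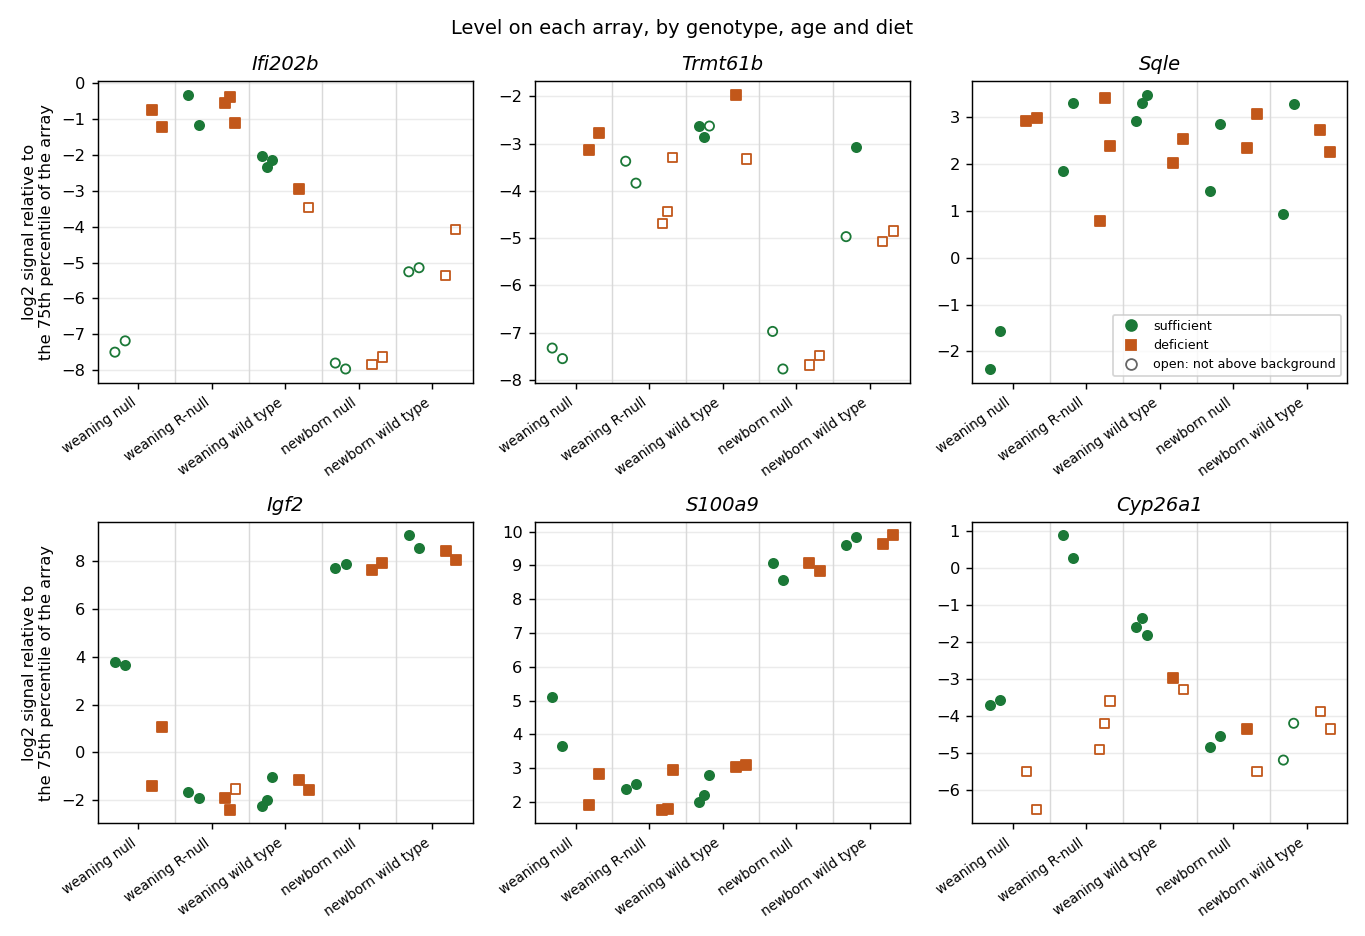
Level of 6 genes on each array (y axis, log2 signal relative to the 75th percentile of that array) by genotype and age (x axis). Circles are sufficient pools, squares deficient pools, and open symbols were not well above background; 2 arrays of other groups that correlated poorly are left out. In the weaning null, Ifi202b, Trmt61b and Sqle lay higher and Igf2, S100a9 and Cyp26a1 lower on the deficient diet, and the sufficient null pools lie below the other weaning groups for Sqle. For Igf2 both sufficient null pools and deficient null pool 2, at 1.07, lie above the other weaning groups.

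The genes of cholesterol synthesis lay higher together on the deficient diet. Of 28 listed genes 27 were measured, all well above background on all 4 arrays, and all 27 differences were above 0, with a median of 1.87. In 26 of the 27 both deficient pools exceeded both sufficient pools, against 19.4% of all genes, and 23 had an unadjusted p under 0.05, against 0.836%. No member passed the adjusted test on its own. The list's median lay between 1.58 and 1.97 under the 16 alternatives, and between 1.78 and 1.97 with any 1 array left out.

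Hmgcs1 encodes the synthase that joins acetyl units early in the route. It stood at 4.23 and 4.51 with vitamin A and 6.49 and 6.16 without (1.95 ± 0.62). Its 3 probes gave differences from 1.87 to 2.48, and the diets did not overlap. Among the mevalonate kinases and the enzymes after them, Mvk differed by 2.00 ± 0.83, Pmvk by 1.41 ± 0.38 and Mvd by 3.03 ± 0.70. Idi1, the isomerase that makes the isoprenoid unit, stood at 0.68 and 1.41 against 4.47 and 4.40, a difference of 3.39 ± 0.80. Fdps, which joins isoprenoids into farnesyl diphosphate, stood at 0.39 and 0.72 against 3.61 and 3.91, a difference of 3.20 ± 1.03. Ggps1, on the branch to geranylgeranyl diphosphate, differed by only 0.12 ± 0.24.

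The genes of squalene and of the sterol ring differed over a wide range, from 0.37 for Ebp to 4.90 for Sqle. Sqle, the epoxidase that opens the sterol branch, stood at -2.37 and -1.57 in the sufficient pools and at 2.90 and 2.97 in the deficient pools, a difference of 4.90 ± 0.84 (limma unadjusted p = 5.36e-05, adjusted p = 0.181). Lss, which closes the ring to lanosterol, stood at -1.23 and -1.01 against 1.29 and 1.23 (2.37 ± 0.46), and its 3 probes agreed in direction. Cyp51, the lanosterol demethylase, stood at -2.08 and -1.81 against 1.30 and 1.34 (3.27 ± 0.68). Both deficient pools lay far above both sufficient pools in each of these. Msmo1 differed by 3.03 ± 0.73 and Nsdhl by 2.89 ± 0.74, the enzymes that remove the methyl groups at carbon 4. Hsd17b7 differed by 1.77 ± 0.37, Dhcr7 by 1.87 ± 0.48 and Fdft1, squalene synthase, by 1.26 ± 0.37. The late enzymes Sc5d and Ebp were already bright and differed by 0.96 ± 0.33 and 0.37 ± 0.28.

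The regulators of the same list went the same way. Insig1, which holds SREBP in the endoplasmic reticulum, differed by 2.11 ± 0.57, and Stard4, a cytosolic sterol carrier, by 1.16 ± 0.31. Srebf2, the gene of SREBP2 itself, stood at 3.58 and 3.59 against 4.66 and 4.59 (1.04 ± 0.31). Scap, its escort protein, differed by 0.19 ± 0.25. Acat2 was the only member whose diets overlapped, at 6.20 and 5.91 against 6.17 and 6.35.

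**Figure D2:**
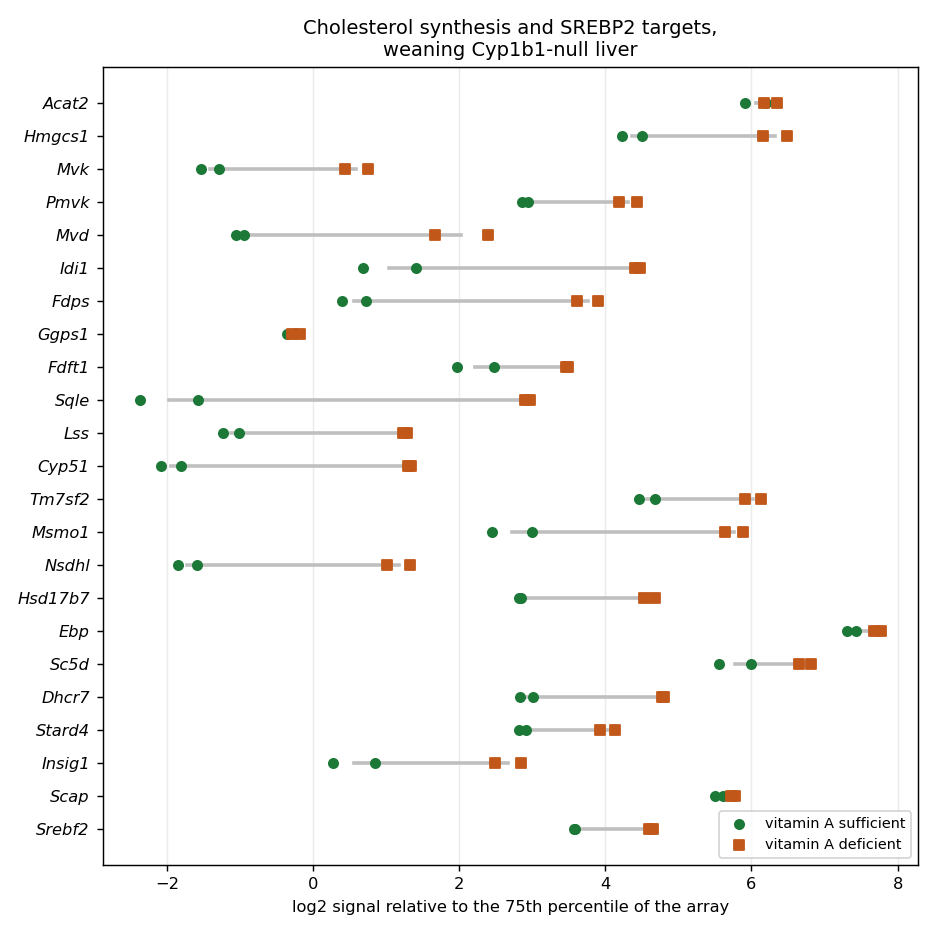
Level of 23 genes of the cholesterol list on the 4 weaning Cyp1b1-null arrays (x axis, log2 signal relative to the 75th percentile of the array), in pathway order from acetyl-CoA down, with regulators last. Green circles are the 2 sufficient pools and orange squares the 2 deficient pools, and the grey bar joins the group means; only Acat2 overlaps.

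Outside the weaning null the same list had a median difference of -0.22 in weaning wild type, -0.20 in R-null and 0.24 in newborn null. In the test of the difference from each, 18, 21 and 14 of the 27 members had an unadjusted p under 0.05 in the higher direction, against 0.617%, 0.807% and 0.739% of all genes. No member passed after adjustment over all genes, and Sqle gave an adjusted p of 0.575 against wild type. The median level of the list was 2.45 and 2.83 in the sufficient null pools and 4.17 and 4.34 in the deficient null pools. In the other weaning groups it lay between 3.45 and 4.41, leaving out the 2 arrays of poor correlation. The sufficient null pools were thus below every other weaning array kept, and the deficient pools were within their range. The null arrays were alone on their slide, so level and slide cannot be told apart in this comparison, whereas the diet difference lies within it.

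**Figure D3:**
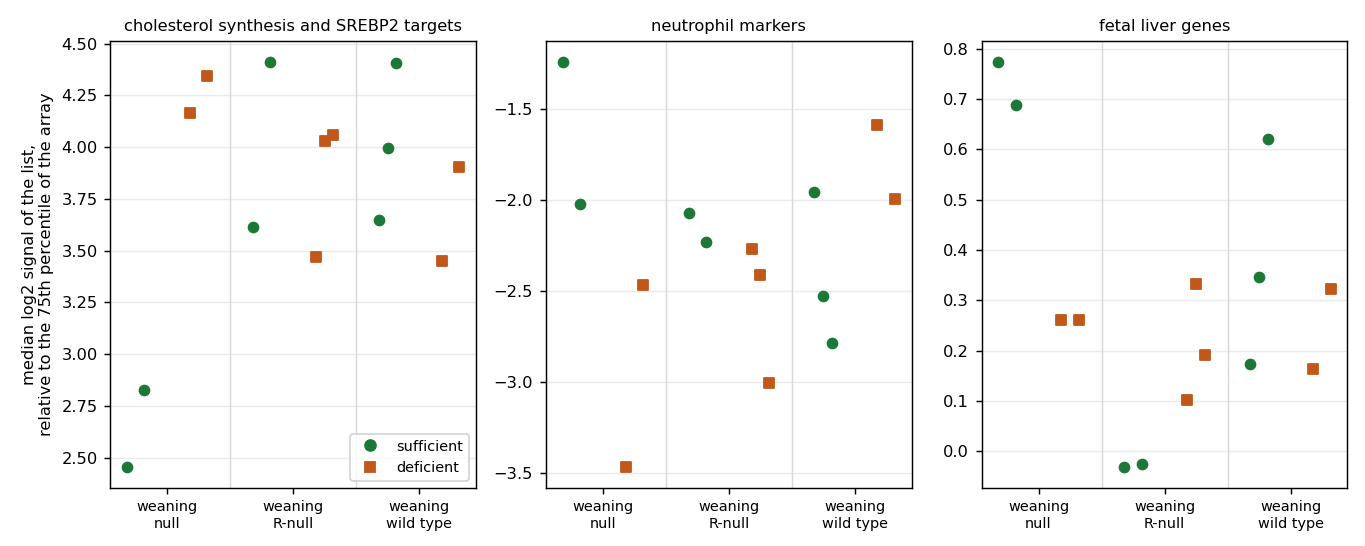
Median level of 3 gene lists on each weaning array but the 2 of poor correlation (y axis, log2 signal relative to the 75th percentile of the array), by genotype (x axis), sufficient pools as circles and deficient pools as squares. Among the arrays shown, the sufficient null pools are lowest for cholesterol synthesis, at 2.45 and 2.83, and highest for fetal liver genes; the 2 arrays not shown stood at 2.44 and 0.21 for cholesterol synthesis.

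Fatty acid synthesis genes followed with smaller differences. Of 36 measured members 24 did not overlap in the higher direction and 4 in the lower, against 19.4% and 16.8% of all genes, with a median of 0.51. An unadjusted p under 0.05 was reached by 5, all higher, against 0.836% of all genes. Fasn, fatty acid synthase, stood at 5.51 and 5.61 against 6.78 and 7.14 (1.40 ± 0.63), and its second probe differed by 1.89. Elovl6, the elongase, differed by 1.62 ± 0.58, Acss2, which activates acetate, by 1.33 ± 0.56, and Aacs, which activates acetoacetate, by 2.31 ± 0.76. Scd1, the desaturase, stood at 2.57 and 2.79 against 3.14 and 4.28 (1.03 ± 0.65). Thrsp, a lipogenic nuclear protein, differed by 2.26 ± 1.11, and Pnpla3, a lipase under the same control, by 1.31 ± 0.65. Srebf1, the gene of SREBP1, did not follow, at 6.82 and 7.03 against 6.36 and 6.89 (-0.30 ± 0.37). Aldoc, a glycolytic aldolase, and Rdh11, a retinal reductase, lay higher as well, by 1.74 ± 0.30 and 1.74 ± 0.58.

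Retinoid genes had a median difference close to that of all genes. Of 31 measured genes of retinoid storage and transport, 10 did not overlap in the higher direction (32.3%, against 19.4% of all genes). In the lower direction 5 did not overlap (16.1%, against 16.8%), and the median was 0.01. A limma unadjusted p under 0.05 was reached by 2 members higher and 2 lower, against 0.836% and 0.89% of all genes. Rdh11, given above, was the highest member at 1.74. Rbp4, the plasma carrier of retinol, stood at 9.89 and 9.70 against 9.98 and 9.65. Lrat, which esterifies retinol, stood at 0.75 and 0.98 against 0.47 and 0.20 (-0.53 ± 0.43). Stra6l, a retinol transporter, and Dhrs3, a retinal reductase, differed by 0.15 ± 0.33 and -0.03 ± 0.32. Retsat, which saturates retinol, differed by 0.80 ± 0.40.

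The retinoic acid degrading enzymes were the retinoid genes that lay lowest. Cyp26a1 was well above background at -3.71 and -3.57 in the sufficient pools. In the deficient pools, at -5.51 and -6.54, it was not well above background. It was thus at least 3.31-fold lower (limma unadjusted p = 0.000355, adjusted p = 0.457). Across the alternatives the log2 difference of Cyp26a1 ranged from -2.91 to -0.58, and at -0.58 this bound did not hold. Cyp26b1 stood at 2.19 and 2.03 against 1.15 and -0.32 (-1.70 ± 0.75). In neither did the diets overlap. Cyp26a1 differed by -1.55 ± 0.62 in weaning wild type and by -4.82 ± 0.46 in R-null, where it passed the test (limma adjusted p = 0.00168), as 0.00486% of all genes did in the lower direction there. Its effect in the weaning null did not pass the test of a difference from either (adjusted p = 1.00). Of 26 measured retinoic acid receptors and targets, 2 did not overlap in the higher direction (7.69%, against 19.4% of all genes) and 8 in the lower direction (30.8%, against 16.8%). Rarb, a receptor that is itself a target, stood at 0.75 and 1.04 against 0.23 and 0.45 (-0.56 ± 0.26), and Rarres1 differed by -1.07 ± 0.31.

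Genes of the fetal liver lay lower on the deficient diet. Of 26 measured, 14 did not overlap in the lower and 2 in the higher direction, against 16.8% and 19.4% of all genes, with a median of -0.25. Igf2, the fetal growth factor, stood at 3.80 and 3.67 with vitamin A and at -1.41 and 1.07 without, a difference of -3.90 ± 0.57 (limma unadjusted p = 9.34e-06, adjusted p = 0.0641). Its second probe differed by -4.05. The deficient pools differed from each other by more than 2 log2 units, and Igf2 was called when deficient pool 2 was left out (difference -5.14, adjusted p = 0.000155). Without deficient pool 1 the difference was -2.66 and was not called, and Igf2 was called in 4 of 16 alternatives in all. H19, the neighbouring imprinted RNA, showed the same split, at 6.93 and 6.78 against 3.77 and 6.05 (-1.95 ± 0.51). Afp, the fetal serum protein, stood at 5.63 and 4.87 against 2.73 and 3.79 (-1.99 ± 0.40). At birth Igf2 stood between 7.62 and 9.09 in both genotypes. The other weaning groups lay between -2.40 and -1.04, so the sufficient null pools were the weaning samples nearest to the newborn level. The newborn and other weaning arrays lay on other slides, so level and slide cannot be told apart here. Plagl1 and Dlk1, imprinted growth regulators, differed by -0.82 ± 0.33 and -1.08 ± 0.60.

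Neutrophil markers were lower on the deficient diet. Of 22 measured, all 22 differences were below 0, 17 did not overlap in the lower direction against 16.8% of all genes, and 12 had an unadjusted p under 0.05 against 0.89%. The median was -1.21. S100a9, a calcium-binding protein of neutrophil granules, stood at 5.09 and 3.67 against 1.92 and 2.82 (-2.01 ± 0.47), and S100a8, its partner, differed by -2.05 ± 0.47. Camp, the cathelicidin precursor, stood at 0.65 and -0.99 against -3.11 and -1.89 (-2.33 ± 0.48). Mpo, myeloperoxidase, stood at 0.93 and -0.31 against -1.96 and -1.11 (-1.85 ± 0.41). Ltf and Ngp, granule proteins, differed by -1.94 ± 0.60 and -2.19 ± 0.83. The receptors Csf3r and Cxcr2 differed by only -0.16 ± 0.57 and -0.43 ± 0.64, and Elane was above background on 1 of the 4 arrays. Without sufficient pool 1 the list's median was -0.78, and without sufficient pool 2 it was -1.80. With normexp background correction and quantile normalization it was -0.33. The test of the difference of effects gave an unadjusted p under 0.05 in the lower direction for 12 members against wild type, 8 against R-null and 11 against newborn null. Over all genes those shares were 2.26%, 1.25% and 0.685%. Myb, a transcription factor of immature blood cells, stood at -1.90 and -2.92 against -4.79 and -4.30 (-2.13 ± 0.37), although 1 of its 4 probes differed by only -0.47. In whole liver, fewer cells of a type and less RNA per cell cannot be told apart.

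**Figure D4:**
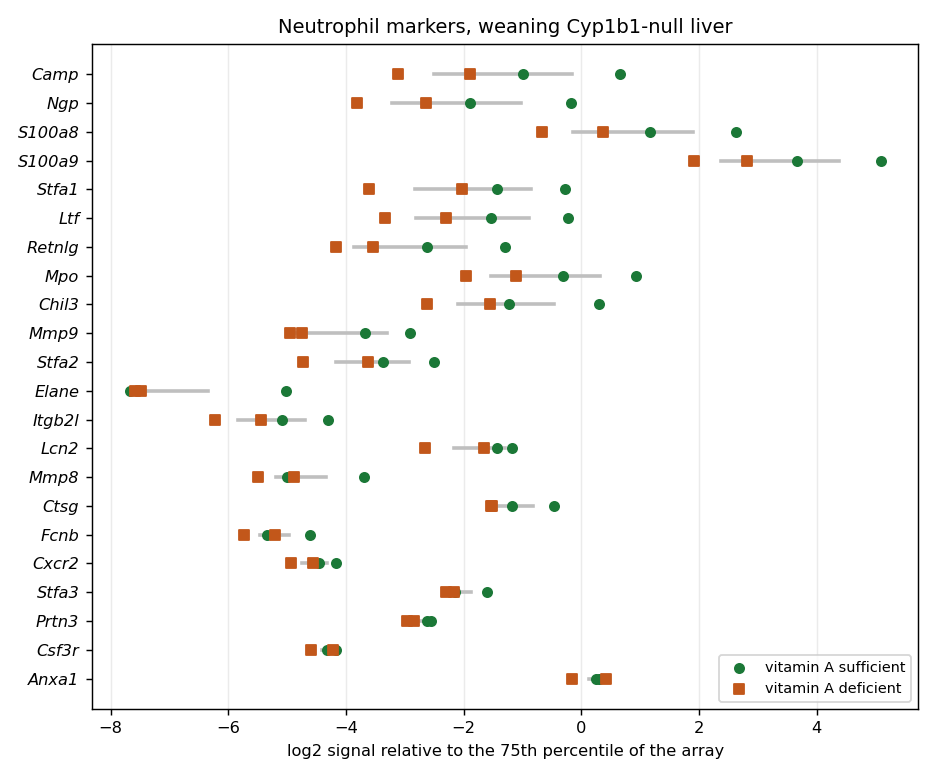
Level of the 22 measured neutrophil markers on the 4 weaning Cyp1b1-null arrays (x axis, log2 signal relative to the 75th percentile of the array), ordered by difference. Green circles are the 2 sufficient pools, orange squares the 2 deficient pools and grey bars join the group means; both sufficient pools exceed both deficient pools in 17 of the 22.

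Other blood and tissue cell lists had smaller median differences. The counts without overlap that follow stand against 16.8% of all genes in the lower and 19.4% in the higher direction. Lymphocyte markers had 14 of 25 members in the lower and 3 in the higher direction (median -0.32). Ighm, the IgM heavy chain, differed by -1.28 ± 0.41, Cd79b, a B cell receptor chain, by -1.04 ± 0.38 and Ms4a1, which encodes CD20, by -1.06 ± 0.44. The probes of Il7r disagreed, the used one differing by -1.21 and another measured one by 0.32. Cell cycle genes lay lower in 29 of 36 and higher in 0 (median -0.61), Top2a by -0.75 ± 0.31. The list's median was -0.27 without deficient pool 1 and -0.94 without deficient pool 2. Of the 36, 1 had a limma unadjusted p under 0.05, in the lower direction, against 0.89% of all genes. The median difference of this list was -0.93 in weaning wild type, 0.10 in R-null and -0.27 in newborn null. No member had an unadjusted p under 0.05 in the tests of a difference from these groups. Endothelial markers were lower in 15 of 23 and higher in 2 (median -0.31), and extracellular matrix genes lower in 19 of 35 and higher in 1 (median -0.27). Stellate cell markers were lower in 10 of 22 and higher in 0 (median -0.22), and macrophage markers had a median of -0.08, Adgre1 differing by -0.26 ± 0.34. Erythroid markers had a median of -0.03. Summed neutrophil signal was 5.69 and 4.36 against 2.85 and 3.68 on the log2 scale, and summed adult hepatocyte signal 12.8 and 12.7 against 12.9 and 12.7. The part of these cell type differences in the other results was not tested.

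Interferon response genes had 22 of 34 members without overlap in the higher direction and 2 in the lower (median 0.37), against 19.4% and 16.8% of all genes. Ifi202b is one of them. Ifit1, an antiviral protein, stood at -2.57 and -2.21 against -1.30 and -1.55 (0.97 ± 0.34). Mx1, an antiviral GTPase, was above background on 1 deficient array only. Xenobiotic genes, the P450s and transferases under nuclear receptors, had 22 of 40 without overlap in the higher and 2 in the lower direction (median 0.29), against the same shares. Cyp2c54 differed by 1.62 ± 0.44 and Sult1e1, the estrogen sulfotransferase, by 3.33 ± 1.54. Cyp7a1, the rate-limiting enzyme of bile acid synthesis, stood at 2.39 and 2.28 against 2.31 and 2.88 (0.26 ± 0.63). Abcg5, which exports sterols, differed by -0.90 ± 0.41. Hamp, the iron hormone hepcidin, stood at -3.82 and -4.58 against 0.34 and -0.63 (4.05 ± 1.49; limma adjusted p = 1.00), and its 3 deficient R-null arrays ranged from -0.58 to 5.74. Of 29 acute phase genes 6 did not overlap in the higher and 9 in the lower direction, against 19.4% and 16.8% of all genes (median -0.01). Orm1 differed by 2.17 ± 0.83 and Crp by 1.51 ± 0.42. Oxidative phosphorylation and cytosolic ribosomal proteins stayed within 0.03 of 0 in the median.

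**Figure D5:**
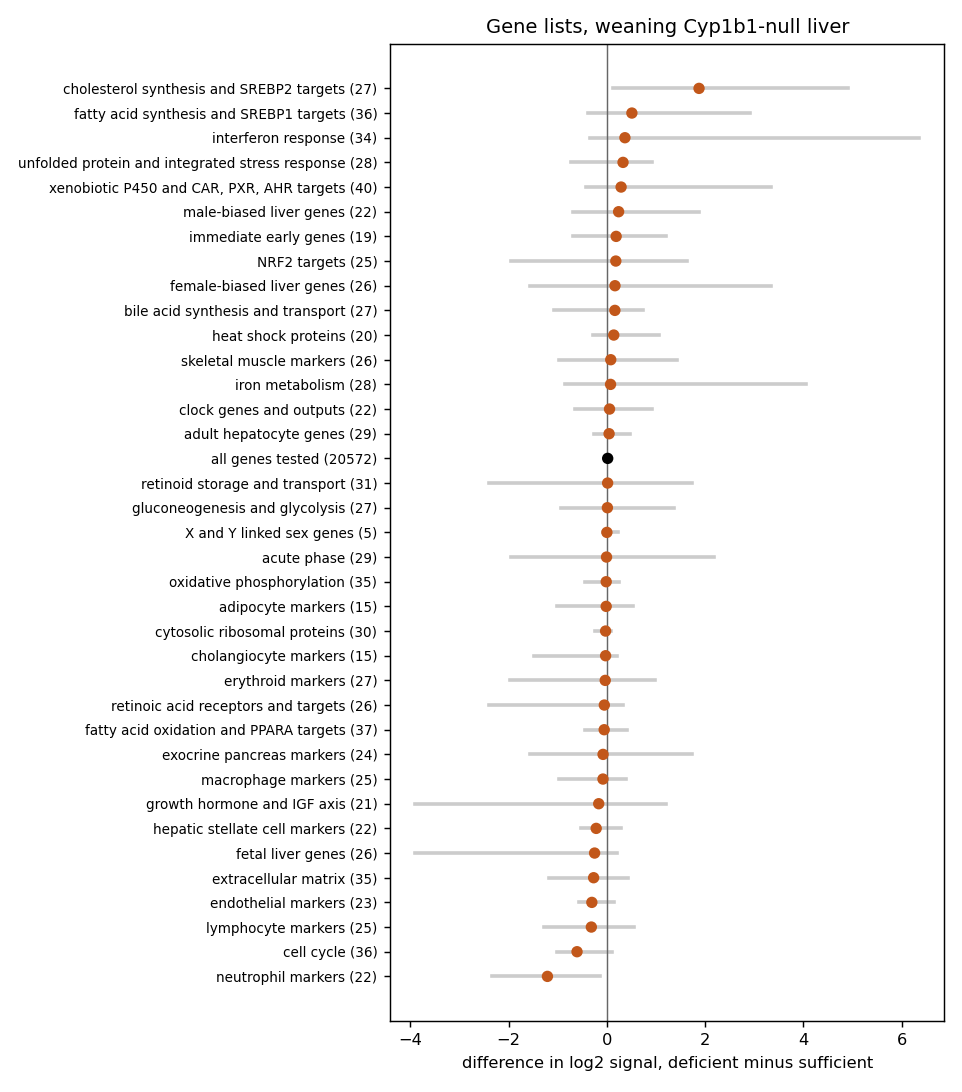
Median difference between diets (x axis, log2, deficient minus sufficient) for 36 gene lists and for all genes tested (black), with the number of measured genes in brackets. Grey bars run from the lowest to the highest member; cholesterol synthesis is highest at 1.87 and neutrophil markers lowest at -1.21.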

How the data were processed

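Liver RNA of 24 samples was measured on 1-colour Agilent arrays. Per the file headers, the authors read each array with Feature Extraction (Agilent, 10.7.3.1), whose processed intensity per spot has background removed, and the authors' deposited series table holds the same intensity within a relative difference of 0.00497. The submitters' processing notes also name limma, with no version. The genome build of the probe design differs from the RefSeq tables used, so coordinates are given only for RefSeq promoters.

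After 2048 outlier spots were left out, each array's 75th percentile was subtracted from its log2 intensities. Probes that cleared background throughout any 1 group were kept (30968), and the brightest stood for its gene (20572 genes). Group means were fitted with limma 3.58.1 in R 4.3.3 to 20 samples of all 10 groups, with 10 residual degrees of freedom, and p-values were adjusted by Benjamini and Hochberg. The 3 arrays of the wild-type sufficient weaning pool were averaged, and 2 arrays of other groups were left out for poor correlation. The fit was also run on simulated arrays with independent noise, no slide effect and no signal floor. That run cannot speak to slide position or to genes near background. The number of arrays limits precision.

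Named genes are those of the study question, the 10 with the smallest p, up to 3 called or 2 of smallest p in each list, and those called in a difference of effects. Genes outside this rule, including the other cholesterol genes, H19, S100a8 and Cyp26b1, were named after their values were seen. Some genes are not reported here. The comparison, the 36 lists and the genes were chosen with earlier results of these data known. Same-numbered pools deviated together with a correlation of 0.14 over only 2 groups, so the numbers were not used as pairs. Alternatives were other background corrections and normalizations, filters, probes, samples and blocks, and each array left out.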

Additional observations from a re-analysis of the deposited data

Results flagged for a closer look

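Ifi202b was singled out because its diet effect in the weaning null differed from that in the other groups by a test of the difference itself, with limma across all genes. The difference from weaning wild type was 7.39 (adjusted p = 0.000583), from weaning R-null 6.30 (adjusted p = 0.000621) and from newborn null 6.21 (adjusted p = 0.00124) on the log2 scale. These sizes are not exact, since the gene was not above background in the sufficient null pools and in all newborn null arrays. Both deficient pools lay above both sufficient pools.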

How the results depend on the processing

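Limits first: with 2 pools a group on 1 slide, an exact test cannot go below p = 0.333, and the calls rest on a spread shared with the other groups. The main calls were 2 higher and 0 lower. Calls fell to 1 higher with normexp and quantile normalization, with quantile normalization alone, with the percentile over detected probes, with no filter on dim probes, with the 2 poorly correlated arrays and with weaning groups only, and 0 with the 4 null arrays alone (1581 genes at unadjusted p under 0.05). With the replicate block on those 4 arrays 0 were called (1868 at unadjusted p under 0.05). Lower calls were 1 with normexp and quantile normalization and with the wild-type pool as 3 samples, and 2 with the slide as a random block. Leaving out 1 array gave 1 higher in each case and 0 to 2 lower. For the differences of effects, both quantile settings gave 0 calls, and leaving out 1 array gave 0 to 2 lower calls against wild type, 0 to 1 against R-null and 0 to 1 against newborn null. That difference from newborn null was not run with weaning groups alone, nor any difference with the 4 arrays alone. Ifi202b was called in 14 of 16 alternatives (adjusted p up to 0.183) and its difference was 1.47 with normexp and quantile normalization. Trmt61b was called in 4 of 16, and its difference was 0.65 under that setting. Under it the median difference was 1.58 for cholesterol genes, 0.35 for fatty acid synthesis and -0.33 for neutrophil markers. Fetal liver genes had -0.30 with the detected percentile, -0.34 to -0.21 with 1 array left out, and 1 gene without overlap in the higher direction under the normexp and detected percentile settings. Direction turned for small differences: Uty to 0.067 with normexp, and Rbp4 to -0.035 with quantile normalization and -0.024 with the detected percentile. With 1 array left out it turned within these ranges for Alb (-0.289 to 0.116), Elane (-2.52 to 0.148), Dhrs3 (-0.0761 to 0.0228), Rbp4 (-0.143 to 0.189), Uty (-0.158 to 0.104), Csf3r (-0.344 to 0.0304), Cyp1b1 (-1.28 to 0.409), Cyp7a1 (-0.0277 to 0.54), Rplp1 (-0.357 to 0.0924). The median over all genes of the difference from wild type was -0.08, and -0.24 with the detected percentile. The causes were not tested. In all, 2060 comparisons of single genes kept direction and side of the threshold, 16 turned direction, 6 gained a call and 14 lost one. Only 2 genes were called in the main fit, so for the rest the same side means still not called.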

Other observations

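Trmt61b and Cyp1b1 both lie on chromosome 17, and Ifi202b lies on chromosome 1. Of 822 genes tested on chromosome 17, 11 had an unadjusted limma p under 0.05 (1.34%), and 19 of those tested on chromosome 1 did (1.97%), against 1.73% of all genes. Lipg, an endothelial lipase, was not above background in the sufficient pools and stood at -4.86 and -4.82 in the deficient pools, at least 1.56-fold higher. Its log2 difference ranged from 0.30 to 2.47 across the alternatives, and at 0.30 this bound did not hold. Cdhr2, a cadherin, was above background only in the sufficient pools, at least 1.29-fold lower without vitamin A, by the brighter of its 2 probes. Cish, which damps cytokine signals, differed by 1.20 ± 0.51, and Mup3, a male-biased urinary protein, by 1.87 ± 0.80. Mt2, a metallothionein, stood at 6.68 and 7.77 against 5.15 and 5.41.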
